A study of Homo sapiens with 16 samples.

Results

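N6-methyladenosine (m6A) is the most common internal modification of messenger RNA, and the 10 genes described here write, read or remove it. They are METTL3, METTL14, WTAP and VIRMA of the nuclear writer complex, the YTH domain readers YTHDC1, YTHDF1, YTHDF2 and YTHDF3, and the erasers ALKBH5 and FTO. The genes were listed by symbol and matched to the Ensembl identifiers of the deposited count tables. All 10 were found among 60676 identifiers, and all 10 passed the filter on low counts that left 19247 genes for testing. The data are total RNA sequencing of 2 human melanoma cell lines with 8 libraries each, numbered 1 to 8 in each line. A101D is labelled as methionine dependent and MeWo as methionine independent, a term for cells that homocysteine can sustain in place of methionine. Each label stands on a single line, so a difference between A101D and MeWo cannot be tied to methionine dependence. Per the labels' protocols cells grew in dialyzed serum with added cystine, and either in methionine or in homocysteine without methionine, but the medium of a given library is not labelled. Values were therefore also read by replicate number in each line, replicates 1 to 4 being called the low-numbered set and replicates 5 to 8 the high-numbered set. No label gives these sets a condition.

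The m6A mark is made by a complex in which METTL3 is the catalytic subunit and METTL14 holds the RNA. WTAP brings the pair to nuclear speckles, and VIRMA is the large scaffold that directs methylation to sites near stop codons. The methyl group comes from S-adenosylmethionine (SAM), which cells make from methionine. YTH domain proteins bind the methylated adenosine: YTHDC1 in the nucleus, where it acts in splicing and export, and the YTHDF proteins in the cytoplasm, where YTHDF2 recruits a deadenylase complex and speeds the decay of the bound RNA. ALKBH5 and FTO are iron-dependent oxygenases that take the methyl group off again. In melanoma both erasers, and METTL3, have been studied for their part in tumour growth and drug response.

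Libraries held 28910881 to 38961862 counts. MeWo replicate 2 had a count for 34471 genes, against 30066 to 31433 in the other 7 MeWo libraries, and leaving it out changed no call of the 10 genes. The 10 genes had between 731 counts (METTL14) and 12364 counts (YTHDF2) in a library, so counting error was at most 3.70% of a value. Levels are given as CPM, counts per 1000000 of the library after scaling by trimmed mean of M-values (TMM). No library was a copy of another: the lowest chi-square per degree of freedom between libraries of a line was 2.32 in A101D and 1.86 in MeWo. The same statistic had a median of 4.03 between A101D libraries of the same set and 100.7 between those of different sets, against 2.95 and 10.8 in MeWo. Whether libraries came from separate cultures is not given, so p-values measure the spread between these samples, which may be technical. All 8 melanocyte markers had a mean above 1 CPM in MeWo, where they summed to 10251 to 11473 CPM. In A101D they summed to 2518 to 3449 CPM, and the pigment enzyme TYRP1 had 0.249 to 1.75 CPM. Of the 8 markers 6 were higher and 2 lower in MeWo, against 38.6% and 40.4% of tested genes. The lower ones were DCT (log2 -1.56) and S100B (log2 -2.21), both without overlap between lines. Fibroblast markers summed to 582 to 1031 CPM in A101D, nearly all from COL1A2 (778 against 0.409 CPM in MeWo), and to 75.6 to 85.6 CPM in MeWo, mostly from LUM. The other 3 of the 4 (COL1A1, DCN and LUM) were higher in MeWo, and DCN had at most 0.239 CPM in A101D. Leukocyte markers summed to at most 0.526 CPM in a library, and epithelial and endothelial markers to at most 2.51 CPM each. The part of these differences in the results was not tested, and bulk RNA cannot tell fewer cells of a kind from less RNA per cell.

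Over all 16 libraries, 5 of the 10 genes were higher in MeWo and 1 was lower. WTAP, VIRMA, YTHDF3, ALKBH5 and FTO rose from A101D to MeWo by between 0.20 and 0.59 on the log2 scale, and YTHDF2 fell by 0.64. METTL3, METTL14, YTHDC1 and YTHDF1 did not pass the test. With limma-voom and Benjamini-Hochberg adjustment at 0.05, 79.0% of all tested genes were called between these lines, 38.6% higher and 40.4% lower in MeWo, so a call by itself sets no gene apart. The median absolute log2 difference was 0.24 over the 10 genes and 0.71 over all tested genes.

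The sets gave different pictures of the same genes. In replicates 1 to 4, 7 of the 10 genes were higher in MeWo, METTL3 and YTHDF2 were lower, and METTL14 was not called, against 38.8% of tested genes higher, 42.7% lower and 81.5% in either direction. In replicates 5 to 8, 6 were higher and 4 (METTL14, YTHDC1, YTHDF1 and YTHDF2) were lower, against 41.7% higher, 43.6% lower and 85.3% in either direction. The line difference itself differed between the sets for 9 of the 10 genes, and for 8 of them it was lower in replicates 5 to 8. Of all tested genes 52.7% passed that test, 24.5% in the lower direction. The division at replicate 4 was taken up with earlier results of these libraries known, so these tests are no independent evidence that the sets differ.

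**Figure D1:**
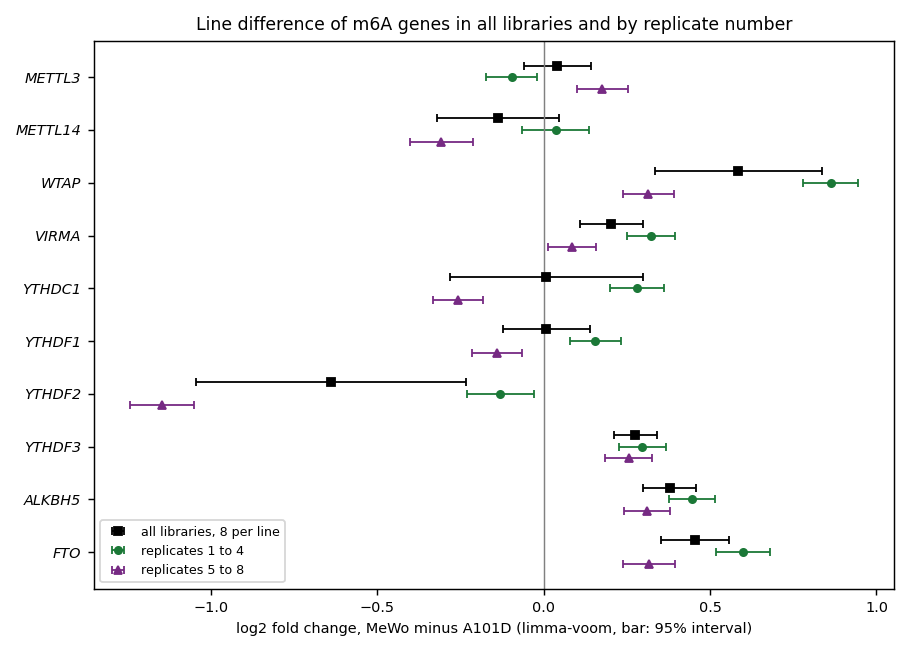
Log2 fold change, MeWo minus A101D, of each gene in all 16 libraries (black squares), replicates 1 to 4 (green circles) and replicates 5 to 8 (purple triangles), with 95% intervals from limma-voom. For 8 genes the purple triangle lies clearly left of the green circle; YTHDF2 moves from -0.13 to -1.15, METTL3 moves right, and YTHDF3 stays at 0.30 and 0.26.

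METTL3 lies at chr14:21498133-21511375 on the minus strand and METTL14 at chr4:118685368-118715433 on the plus strand (GRCh38, GENCODE v29, as for all gene positions here). METTL3 was at 61.8, 64.3, 64.6 and 65.6 CPM in A101D replicates 1 to 4 and at 53.3, 59.6, 54.4 and 54.7 CPM in replicates 5 to 8. MeWo libraries 1 to 4 had 61.0, 59.7, 59.2 and 59.8 CPM of it, and libraries 5 to 8 had 61.7, 62.6, 63.8 and 62.7 CPM. The catalytic subunit was thus lower in the high-numbered set of A101D and higher in that of MeWo, and the sets overlapped in neither line. With other scalings the sets overlapped in MeWo (median-of-ratios) and in A101D (total counts as the scale, ratio 0.922). Its line difference was 0.041 ± 0.048 (log2, SE, limma-voom, n = 8 per line, adjusted p = 0.438) with a 95% interval from -0.060 to 0.14. Replicates 1 to 4 gave -0.096 ± 0.038 (adjusted p = 0.0204) and replicates 5 to 8 gave 0.18 ± 0.038 (adjusted p = 5.69e-05, limma-voom, n = 4 per group). The sign of the METTL3 difference therefore turned between the sets, and the sets differed by 0.27 ± 0.053 (adjusted p = 4.12e-05). The lower value in MeWo replicates 1 to 4 lost its call without A101D replicate 4 (adjusted p = 0.0638) and with median-of-ratios (0.0946) or upper-quartile scaling (0.0973).

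METTL14, the RNA-binding partner, behaved the other way in A101D. It had 26.9, 26.8, 26.04 and 28.2 CPM in A101D replicates 1 to 4 and 37.4, 38.5, 33.2 and 37.6 CPM in replicates 5 to 8. The MeWo values were 27.5, 27.1, 28.1 and 28.0 CPM in replicates 1 to 4 and 28.8, 30.6, 30.4 and 28.8 CPM in replicates 5 to 8. Every A101D library of replicates 5 to 8 was above every other library, while the low-numbered set of A101D overlapped MeWo. The gene did not differ detectably between lines in replicates 1 to 4 (log2 0.036 ± 0.050, adjusted p = 0.510, limma-voom) and was lower in MeWo in replicates 5 to 8 (-0.31 ± 0.046, adjusted p = 1.5e-07). Across all libraries the difference of -0.14 had a 95% interval from -0.32 to 0.047, wide because A101D itself spanned 26.04 to 38.5 CPM.

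Because METTL3 and METTL14 form a heterodimer, their levels were also set side by side per kilobase of exon. The METTL3 to METTL14 ratio was 2.77 ± 0.0957 in A101D replicates 1 to 4 and 1.77 ± 0.114 in replicates 5 to 8 (SD, n = 4). In MeWo it was 2.52 ± 0.0650 and 2.46 ± 0.0687. The A101D sets did not overlap (2.68 to 2.89 against 1.66 to 1.91), whereas the MeWo sets did. The size of the ratio depends on the lengths used (5.894 kb of exon for METTL3, 6.862 kb for METTL14), but its relative change between libraries does not. With the longest coding transcript it was 7.86 and 5.02 in the A101D sets and 7.16 and 7.01 in the MeWo sets. METTL3 shares 388 exon bases, 6.58% of its exon length, with the antisense gene TOX4, and the strand setting of the counting is not given. TOX4 had a mean of 72.9 CPM in A101D replicates 1 to 4 and 81.4 CPM in replicates 5 to 8, a direction opposite to that of METTL3. The MeWo sets had 96.8 and 97.0 CPM of TOX4. TOX4 was higher in MeWo in replicates 1 to 4 (log2 0.41), opposite to METTL3, and in replicates 5 to 8 (log2 0.25), in the same direction as METTL3. Its part in the METTL3 values was not tested.

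WTAP (chr6:159725585-159756319, plus strand), which localises the catalytic pair, was higher in MeWo in every comparison. A101D had 47.4, 52.2, 51.7 and 52.6 CPM in replicates 1 to 4 and 83.1, 79.8, 83.4 and 75.7 CPM in replicates 5 to 8. MeWo had 94.7, 91.5, 89.8 and 93.6 CPM and then 96.8, 104.4, 98.5 and 100.3 CPM. No A101D library reached the lowest MeWo library, but the gap narrowed in the high-numbered set. WTAP rose from A101D to MeWo by 0.86 ± 0.041 on the log2 scale in replicates 1 to 4 (adjusted p = 4.05e-21, limma-voom) and by 0.31 ± 0.038 in replicates 5 to 8 (adjusted p = 1.4e-09). The 2 differences were unequal (-0.55 ± 0.056, adjusted p = 1.02e-10). Per kilobase, WTAP stood at 0.730 ± 0.0182 of the METTL3 level in A101D replicates 1 to 4 and at 1.33 ± 0.100 in replicates 5 to 8, against 1.42 ± 0.0193 and 1.46 ± 0.0492 in MeWo (SD, n = 4). The size of this ratio rests on the length used: with the longest coding transcript it was 0.438 and 0.801 in A101D and 0.850 and 0.879 in MeWo, below 1 in every library. WTAP overlaps the antisense gene SOD2 over 298 exon bases (4.64% of its exon length). SOD2 went from 85.0 to 65.5 CPM between the A101D sets, opposite to WTAP, and was at 90.9 and 91.8 CPM in MeWo.

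VIRMA, the scaffold subunit encoded on chromosome 8, was higher in MeWo than in A101D. It ranged from 84.7 through a median of 94.9 to 101.8 CPM in A101D and from 104.1 through 108.0 to 112.8 CPM in MeWo, with no overlap. The gene rose by 0.20 ± 0.045 on the log2 scale over all libraries (adjusted p = 4.86e-04, limma-voom, n = 8 per line). In replicates 5 to 8 alone the difference was 0.086 ± 0.035 (adjusted p = 0.0238), and this call was lost without A101D replicate 8 (adjusted p = 0.0826), without MeWo replicate 6 (0.0902) and with each other scaling tried (0.0547 to 0.218).

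**Figure D2:**
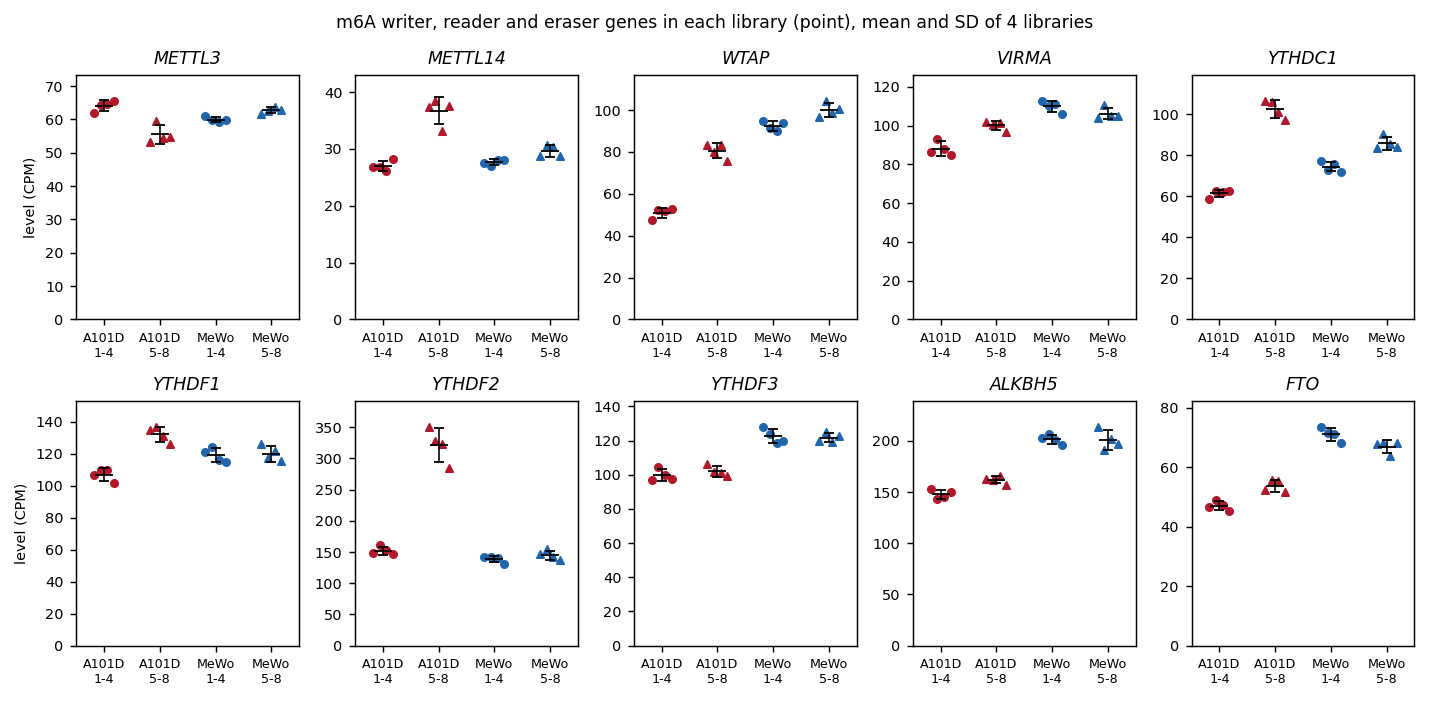
Level in CPM (y axis, from 0) of each of the 10 genes in every library, by line and replicate set; points are libraries, bars the mean and SD of 4 libraries. YTHDF2, YTHDC1, WTAP and METTL14 stand higher in A101D replicates 5 to 8 than in replicates 1 to 4, with YTHDF2 at 286 to 350 CPM against 146 to 161 CPM.

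The other subunits of the writer complex divided evenly by line. Of 4 listed, ZC3H13 and RBM15B were higher and RBM15 and CBLL1 lower in MeWo, against 38.6% and 40.4% of tested genes (RBM15B was named after its values were seen). CBLL1, an E3 ubiquitin ligase also called HAKAI, had a mean of 74.0 ± 8.16 CPM in A101D and 33.0 ± 1.72 CPM in MeWo (SD, n = 8), a fall of 1.16 ± 0.065 on the log2 scale (adjusted p = 1.74e-11, limma-voom). ZC3H13, a zinc finger protein that keeps the complex in the nucleus, rose from 167 ± 28.99 to 248 ± 8.81 CPM (log2 0.59 ± 0.086, adjusted p = 6.8e-06). RBM15, which binds RNA and recruits the complex, fell by 0.25 ± 0.053 (adjusted p = 3.79e-04). All 4 had A101D sets that did not overlap, with the higher values in replicates 5 to 8. In MeWo all 4 had overlapping sets, as most tested genes had (8.81% were higher and 9.40% lower without overlap). Together with the members, 7 of the 8 subunits (all but METTL3) were thus higher in the high-numbered set of A101D, where 30.5% of tested genes were.

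The 6 listed genes were 5 methyltransferases outside this complex that methylate adenosine at its N6 position and the partner protein TRMT112. Of these 6, 5 were higher in MeWo, against 38.6% of tested genes. None was lower, and ZCCHC4 (log2 0.11, adjusted p = 0.162, limma-voom) was not called. METTL16, which methylates a spliceosomal RNA and hairpins in the MAT2A transcript, had means of 33.9 and 60.6 CPM in the A101D sets and 71.4 and 73.9 CPM in the MeWo sets. Its A101D sets did not overlap, a ratio of 1.79. The METTL16 line difference was 1.08 ± 0.041 (log2, SE) in replicates 1 to 4 and 0.29 ± 0.037 in replicates 5 to 8, and these differed (-0.79 ± 0.055, adjusted p = 4.89e-15, limma-voom). TRMT112, the partner that stabilises the ribosomal RNA methyltransferase METTL5, rose by 0.54 ± 0.048 over all libraries (adjusted p = 1.06e-08). PCIF1, which methylates the adenosine next to the cap, rose by 0.36 ± 0.049 (adjusted p = 2.7e-06).

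Among the 4 YTH readers of the 10 genes, the nuclear YTHDC1 (chr4:68310387-68350089, minus strand) and the cytoplasmic YTHDF2 (chr1:28736621-28769775, plus strand) differed most between the sets of A101D. Their promoter windows are shown because both genes were higher in the high-numbered set of A101D and because the windows hold at most 3 exon bases of the gene. In MeWo the sets overlapped for YTHDF2 (ratio 1.05) and did not for YTHDC1 (ratio 1.15). Each is the 250 bases before an annotated start, from RefSeq (GRCh38.p14), printed 5′ to 3′ on the gene's strand. YTHDF2 is at chr1:28736374-28736623 (plus strand) and YTHDC1 at chr4:68350091-68350340 (minus strand).
YTHDF2: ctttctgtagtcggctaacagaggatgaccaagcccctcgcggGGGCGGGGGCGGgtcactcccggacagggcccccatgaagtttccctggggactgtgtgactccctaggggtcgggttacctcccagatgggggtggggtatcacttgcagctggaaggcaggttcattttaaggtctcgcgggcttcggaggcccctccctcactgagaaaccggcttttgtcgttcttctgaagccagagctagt
YTHDC1: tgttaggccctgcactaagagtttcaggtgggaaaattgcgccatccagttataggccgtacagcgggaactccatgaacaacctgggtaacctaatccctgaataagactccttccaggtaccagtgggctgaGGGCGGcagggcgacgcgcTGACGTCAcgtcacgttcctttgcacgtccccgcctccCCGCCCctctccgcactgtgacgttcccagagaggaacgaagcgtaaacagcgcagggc
Capitals mark 3 motifs searched on both strands: the GC box GGGCGG, the cAMP response element TGACGTCA and the C/EBP-ATF element TGATGCAA. The YTHDF2 window holds 2 GC boxes side by side. A second RefSeq start of YTHDF2 has its window at chr1:28736690-28736939, with 4 GC boxes, and is not printed because it lies within exons of the gene. The YTHDC1 window holds 1 GC box on each strand and 1 cAMP response element that begins 97 bases before the start. Among 35116 promoter windows of this length 42.6% hold the GC box, 1.65% the cAMP response element and 0.772% the C/EBP-ATF element, which neither window has. The matches describe the letters only.

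YTHDF2, the reader that promotes decay of methylated RNA, had the largest change of all 10 genes. In A101D it was at 148.1, 160.6, 153.3 and 146.3 CPM in replicates 1 to 4 and at 350.3, 327.7, 323.9 and 285.5 CPM in replicates 5 to 8. In MeWo it was at 141.5, 141.7, 141.0 and 131.4 CPM and then at 147.1, 154.5, 141.6 and 137.7 CPM. The high-numbered set of A101D stood apart from the 12 other libraries, which together spanned 131 to 161 CPM. The ratio of A101D set means was 2.12, and 12.1% of tested genes had a larger absolute ratio in that line. The YTHDF2 level fell from A101D to MeWo by 1.15 ± 0.047 on the log2 scale in replicates 5 to 8 (adjusted p = 5.32e-19, limma-voom, n = 4 per group), which is 2.21-fold. In replicates 1 to 4 the difference was -0.13 ± 0.049 (adjusted p = 0.0175), and the difference over all libraries, which pools these unequal values, was -0.64 ± 0.19 (adjusted p = 0.0059). The change of the line difference was -1.02 ± 0.068 (adjusted p = 4.15e-13). The call in replicates 1 to 4 was lost without A101D replicate 2 (adjusted p = 0.0727), without MeWo replicate 4 (0.0782), under each other scaling tried (0.0521 to 0.0727) and with no filter on low counts (0.286). The processed pseudogene YTHDF2P1, which could share reads, had at most 0.38 CPM in any library.

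YTHDC1 turned its sign. It had 58.6, 62.4, 62.0 and 62.8 CPM in A101D replicates 1 to 4 and 106.6, 106.0, 101.2 and 97.2 CPM in replicates 5 to 8. MeWo values were 77.2, 73.1, 75.6 and 72.1 CPM and then 83.5, 90.5, 85.4 and 84.1 CPM. The MeWo libraries thus lay between the A101D sets, and the sets did not overlap in either line. MeWo was higher by 0.28 ± 0.040 on the log2 scale in replicates 1 to 4 (adjusted p = 5.85e-08, limma-voom) and lower in replicates 5 to 8 (-0.26 ± 0.037, adjusted p = 6.66e-08). Over all libraries these gave 0.0085 ± 0.14 with a 95% interval from -0.28 to 0.30, so the absent call does not show equal levels. The change of the difference was -0.54 ± 0.055 (adjusted p = 9.26e-11).

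YTHDF1 (chr20:63195429-63216234, minus strand), a reader linked to translation of its targets, turned its sign as YTHDC1 did. A101D had 106.6, 109.6, 109.6 and 101.4 CPM in the low-numbered set and 134.5, 136.5, 130.7 and 126.1 CPM in the high-numbered set. MeWo ranged from 114.8 through 118.9 to 125.9 CPM, and its sets overlapped. MeWo was higher by 0.16 ± 0.037 on the log2 scale in replicates 1 to 4 (adjusted p = 2.83e-04, limma-voom) and lower in replicates 5 to 8 (-0.14 ± 0.037, adjusted p = 6.39e-04). YTHDF3, on chromosome 8 and similar in sequence to the other YTHDF proteins, differed least between the A101D sets (ratio 1.02). It ranged from 97.2 through 100.4 to 106.2 CPM in A101D and from 118.8 through 121.1 to 127.9 CPM in MeWo, with no overlap between lines and with overlapping sets in both. With upper-quartile scaling (ratio 1.065) or total counts as the scale (1.089), the A101D sets of YTHDF3 did not overlap. The gene rose by 0.28 ± 0.030 from A101D to MeWo over all libraries (adjusted p = 1.92e-07, limma-voom). Its line difference was the single one that did not pass the test of a change between sets (-0.041, 95% interval -0.14 to 0.059, adjusted p = 0.508).

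The makeup of the YTHDF family followed from these values. Per kilobase of exon, YTHDF2 took 44.8 ± 0.419% of the summed level of YTHDF1, YTHDF2 and YTHDF3 in A101D replicates 1 to 4 and 59.5 ± 1.40% in replicates 5 to 8 (SD, n = 4). In MeWo it took 39.2 ± 0.691% and 40.2 ± 1.11%. No A101D library of either set overlapped a MeWo library in this share.

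**Figure D3:**
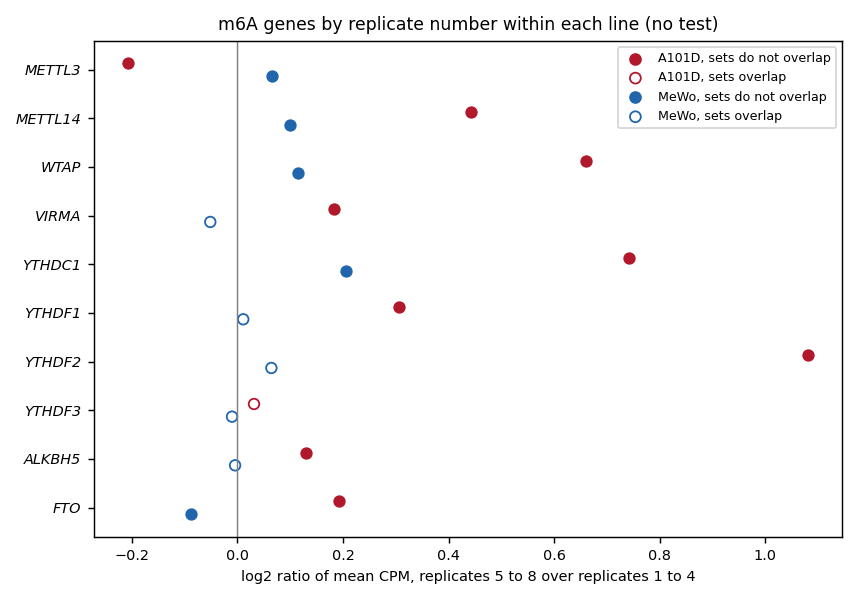
Log2 ratio of mean CPM, replicates 5 to 8 over replicates 1 to 4, of each gene in A101D (red) and MeWo (blue); filled circles mark sets that do not overlap. In A101D the ratios run from -0.21 (METTL3) to 1.08 (YTHDF2), in MeWo from -0.088 (FTO) to 0.20 (YTHDC1).

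Counted over the 10 genes, A101D had 8 genes with higher and 1 (METTL3) with lower values in replicates 5 to 8 and no overlap, against 30.5% and 31.7% of tested genes. MeWo had 4 higher (METTL3, METTL14, WTAP and YTHDC1) and 1 lower (FTO), against 8.81% and 9.40% of tested genes. The MeWo ratios of the 4 higher genes ran from 1.05 to 1.15. With median-of-ratios scaling the MeWo count was 3 in place of 5: METTL14, WTAP and YTHDC1 were still higher without overlap, and METTL3 and FTO overlapped. With total counts as the scale METTL3 overlapped in A101D and YTHDF3 was higher there without overlap. In MeWo FTO then overlapped and YTHDF2 was higher without overlap. METTL14, WTAP and YTHDC1 were thus higher in the high-numbered set of both lines under all of these scalings.

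Other proteins described as m6A readers included line differences larger than that of any of the 10 genes. IGF2BP1, a fetal RNA-binding protein that stabilises its targets, had 23494 counts over the 8 A101D libraries and 10 over the 8 MeWo libraries, a ratio of 2340 (exact 95% interval 1272 to 4879, counting error only). IGF2BP3 was at 112 ± 23.5 CPM in A101D and 46.1 ± 3.76 CPM in MeWo (SD, n = 8), and fell by 1.26 ± 0.11 (log2, adjusted p = 1.12e-08, limma-voom). IGF2BP2 fell by 0.45 ± 0.044 (adjusted p = 4.38e-08), so all 3 members of this family were lower in MeWo. Of the 9 listed genes 4 were lower, the fourth being PRRC2A at -0.083 ± 0.036 (adjusted p = 0.0449), and 3 were higher, against 40.4% and 38.6% of tested genes. The latter included YTHDC2, the RNA helicase of the YTH family, which rose by 0.66 ± 0.033 (adjusted p = 4.09e-12). YTHDC2 had overlapping sets in both lines, at 39.0 and 38.5 CPM in A101D and at 61.3 CPM in both MeWo sets. Within A101D, 6 of the 9 genes were lower in replicates 5 to 8 with no overlap and 1 (IGF2BP2) was higher, against 31.7% and 30.5% of tested genes. Among the lower were the nuclear ribonucleoproteins HNRNPA2B1 (652 to 414 CPM), HNRNPC (431 to 241 CPM) and RBMX (237 to 129 CPM), named after their values were seen. These go opposite to YTHDC1 and YTHDF2 between the same libraries.

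ALKBH5 (chr17:18183078-18209954, plus strand), an eraser located in the nucleus, was higher in MeWo in every library. It ranged from 143.6 through 154.9 to 165.3 CPM in A101D and from 191.3 through 201.2 to 213.4 CPM in MeWo. The rise was 0.38 ± 0.037 on the log2 scale over all libraries (adjusted p = 4.85e-08, limma-voom, n = 8 per line), or 1.30-fold. It was 0.45 ± 0.034 in replicates 1 to 4 and 0.31 ± 0.034 in replicates 5 to 8, a small change that passed the test (-0.14 ± 0.048, adjusted p = 0.0163). FTO (chr16:53701692-54158512, plus strand), which also acts on the methylated adenosine next to the cap, ranged from 45.2 through 50.2 to 55.8 CPM in A101D and from 63.6 through 68.2 to 73.5 CPM in MeWo. No library of one line overlapped the other. FTO rose by 0.46 ± 0.049 over all libraries (adjusted p = 1.28e-07, limma-voom), or 1.37-fold, by 0.60 ± 0.040 in replicates 1 to 4 and by 0.32 ± 0.039 in replicates 5 to 8. Its high-numbered set lay above the other set in A101D and below it in MeWo, without overlap in either line. In MeWo, though, the sets overlapped with median-of-ratios scaling and with total counts as the scale. Per kilobase of exon, A101D libraries had 20.7 ± 0.992 times as much ALKBH5 as FTO and MeWo libraries 19.6 ± 1.04 times (SD, n = 8), with overlapping ranges. With the longest coding transcript, which shortens FTO most, these values were 13.2 ± 0.633 and 12.5 ± 0.663.

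The erasers belong to the AlkB family, whose other members repair DNA or modify transfer RNA and proteins. Of 7 listed, ALKBH3 and ALKBH7 were higher in MeWo, ALKBH1, ALKBH4 and ALKBH8 were lower, and the remaining pair was not called, against 38.6% of tested genes higher and 40.4% lower (all but ALKBH4 and ALKBH8 were named after their values were seen). ALKBH4 fell by 0.79 ± 0.086 on the log2 scale (adjusted p = 1.63e-07, limma-voom) and ALKBH8, which modifies transfer RNA, by 0.60 ± 0.13 (adjusted p = 3.58e-04). The rise of both m6A erasers was thus not shared by all of the family. In A101D 5 of the 7 were higher in replicates 5 to 8 with no overlap, against 30.5% of tested genes. In MeWo all 7 had overlapping sets, where 8.81% of tested genes were higher and 9.40% lower without overlap.

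The enzymes around the methyl donor were read alongside. MAT2A, the catalytic subunit that makes SAM from methionine, had a mean of 137 ± 3.40 CPM in A101D replicates 1 to 4 and 616 ± 8.12 CPM in replicates 5 to 8 (SD, n = 4). In MeWo it had 184 ± 8.33 CPM and 653 ± 24.0 CPM. The sets did not overlap in either line, with ratios of 4.49 and 3.54, so MAT2A separated the sets in MeWo as well, where the ratios of the 10 m6A genes lay between 0.941 and 1.15. MAT2A was higher in MeWo by 0.43 ± 0.036 on the log2 scale in replicates 1 to 4 (adjusted p = 9.28e-14, limma-voom) and by 0.083 ± 0.030 in replicates 5 to 8 (adjusted p = 0.0122), and the second call was lost with total counts as the scale (adjusted p = 0.203) and without MeWo replicate 6 (0.0532). Over all libraries, where the spread holds the difference of the sets, it was not called (0.25 ± 0.49, adjusted p = 0.642). A block for the replicate number gave a call (adjusted p = 0.00407). MAT2B, its regulatory subunit, rose by 1.09 ± 0.042 (adjusted p = 8.36e-14) and had overlapping sets in both lines. AHCY, which clears the product of methylation reactions, was at 344 and 237 CPM in the A101D sets and at 269 and 256 CPM in the MeWo sets (named after its values were seen).

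**Figure D4:**
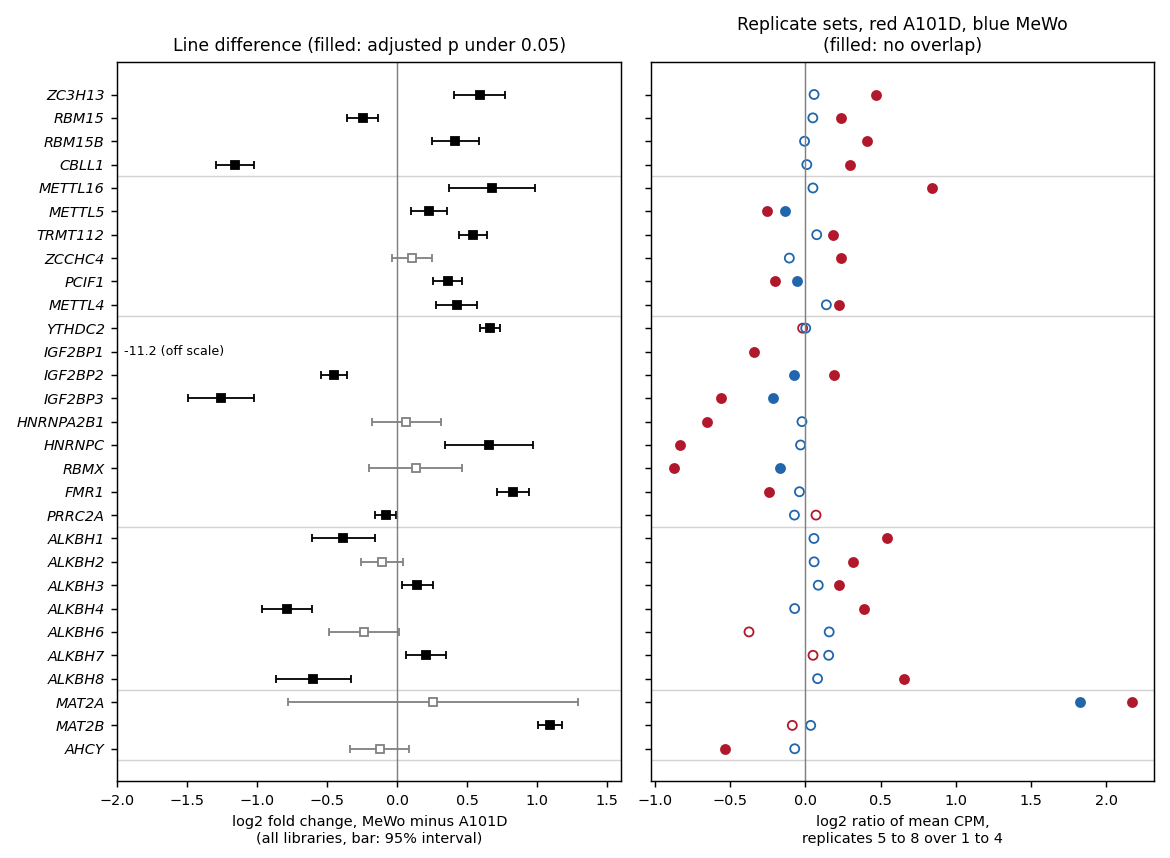
Left: log2 fold change, MeWo minus A101D, over all libraries with 95% intervals for 29 related genes, filled where the adjusted p is under 0.05; IGF2BP1 lies off the axis at -11.2. Right: log2 ratio of mean CPM between replicate sets in A101D (red) and MeWo (blue), filled where sets do not overlap, without IGF2BP1 in MeWo; grey lines separate writer subunits, other methyltransferases, readers, AlkB family and methyl donor genes, from top to bottom. MAT2A stands at 2.17 in A101D and 1.82 in MeWo, METTL16 at 0.84 and 0.050.

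Compared with each other per kilobase of exon, the reader YTHDF2 and the eraser ALKBH5 were the most abundant of the 10 transcripts in each A101D set. In MeWo ALKBH5 led with 63.1 ± 2.13 CPM per kb (SD, n = 8), and YTHDF2 (36.8 ± 1.74) and YTHDF1 (36.2 ± 1.29) followed with overlapping ranges. YTHDF3 (19.8 ± 0.530) and WTAP (14.99 ± 0.751) came next and overlapped neither each other nor their neighbours. YTHDC1 (11.4), METTL3 (10.4) and VIRMA (10.04 CPM per kb) overlapped in turn, and METTL14 (4.18 ± 0.187) and FTO (3.23 ± 0.141) closed the order without overlap. In A101D replicates 1 to 4 ALKBH5 also led (46.3 ± 1.34 CPM per kb, n = 4) ahead of YTHDF2 (39.4 ± 1.66), and in replicates 5 to 8 YTHDF2 led (83.4 ± 6.97) ahead of ALKBH5 (50.7 ± 1.08), both without overlap. METTL3 ranked the fifth in A101D replicates 1 to 4 and the seventh in replicates 5 to 8, where YTHDC1 and WTAP had passed it. The low place of FTO rests on a long union of exons (21.379 kb). With the length of the longest coding transcript in its place (11.766 kb), FTO was above METTL14 in MeWo, at 5.86 against 4.30 CPM per kb, and METTL3 took the fourth place in both lines.

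**Figure D5:**
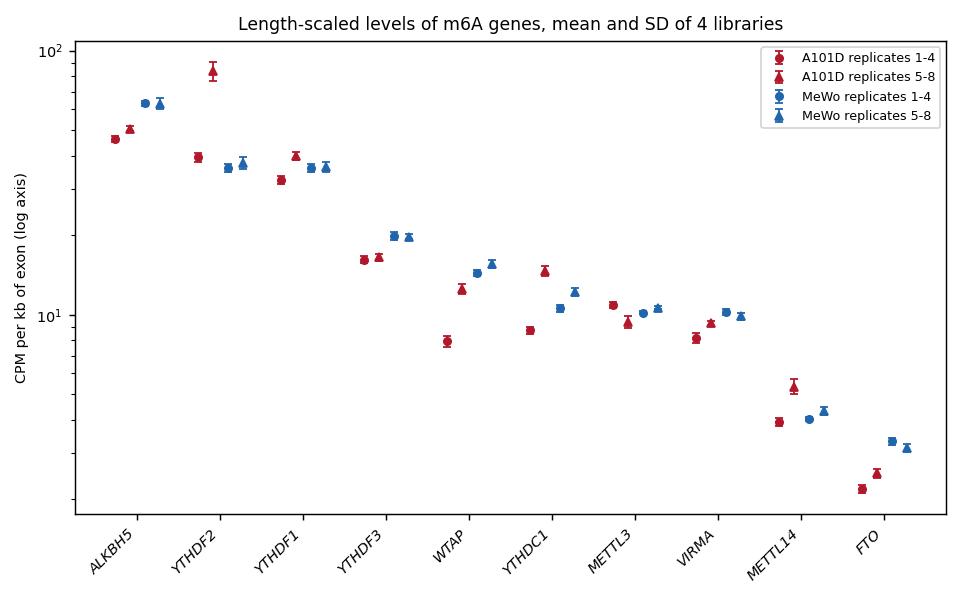
Level per kilobase of exon (log axis) of the 10 genes, ordered by their MeWo mean, in A101D (red) and MeWo (blue), replicates 1 to 4 (circles) and 5 to 8 (triangles); points are means and bars SDs of 4 libraries. YTHDF2 in A101D replicates 5 to 8 is the highest point at 83.4 CPM per kb, and FTO is the lowest gene in every group.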

How the data were processed

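For each line the authors deposited raw read counts over exons, per the file headers, from libraries of a stranded kit, per the labels' protocols (16 libraries in all). Trimmomatic 0.39-1, STAR 2.7.1a, featureCounts 2.0.0 and GRCh38 are named in the submitters' processing notes. The annotation release and the strand setting were not given in these sources. Deposited cells join an identifier and its count, so the columns are recorded with the unit "other", and both parts were separated before use. Symbols matched 60357 of 60676 identifiers, and positions are those of GENCODE v29, which holds 58503.

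A gene needed 0.298 CPM (10 counts at the median depth) in 8 or more libraries, and a total of 15 counts, to be tested. TMM factors used trims of 30% and 5% over these genes. The test was limma-voom (limma 3.58.1, R 4.3.3, robust empirical Bayes), Benjamini-Hochberg adjusted over 19247 genes, two-sided, threshold 0.05. One model had the line as its term, and one had 4 groups (line by replicate set, 1 to 4 or 5 to 8). Replicate sets within a line were described without a test. The limma step was tested on simulated data. The alternatives were other scalings, filters, limma-trend and leaving out libraries. A threshold of 0.01 and a replicate block were applied only to the comparison of all libraries. Leaving out a library kept the scaling factors and the genes tested. Leaving out each library for the change between sets, and for the sets within a line, the outlier check within sets of 4, and the length of the longest coding transcript were chosen after seeing the data.

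The text names all 10 genes, METTL16, ZC3H13, RBM15, CBLL1, PCIF1, YTHDC2, IGF2BP1, IGF2BP2, IGF2BP3, PRRC2A and MAT2A whatever their values, and in each list up to 2 called genes with the largest absolute change. Members, lists and the division into sets were chosen with earlier results of these data known. Promoter windows came from RefSeq, where 8 of the 10 genes were matched and chromosome 8 was not used. Figures were drawn with matplotlib 3.10.9.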

Additional observations from a re-analysis of the deposited data

Results flagged for a closer look

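The line difference (log2, MeWo minus A101D) differed between replicates 5 to 8 and replicates 1 to 4 for 9 of the 10 genes by a test of that difference (limma-voom, 4 libraries per group). The change was 0.27 for METTL3, which was the single gene with a higher difference in replicates 5 to 8. It was -1.02 for YTHDF2, -0.55 for WTAP, -0.54 for YTHDC1, -0.34 for METTL14, -0.30 for YTHDF1, -0.28 for FTO, -0.24 for VIRMA and -0.14 for ALKBH5. No label says what separates the sets, and 52.7% of all tested genes passed the same test. Single libraries were checked with Dixon's test within each set of 4, since in A101D the distance between the sets widens the range over 8 libraries and can hide one. In 40 groups, where chance gives about 2, the test marked 2: YTHDF2 in MeWo replicate 4 at 131 CPM, low among replicates 1 to 4, and FTO in MeWo replicate 7 at 63.6 CPM, low among replicates 5 to 8.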

How the results depend on the processing

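Over the alternatives run 590 fold changes of the 10 genes were recomputed, of which 573 kept direction and call, 14 lost the call and 3 changed sign. The threshold of 0.01 was applied only to the comparison of all libraries. Adjusted p-values above it (limma-voom, called at 0.05) were METTL3 0.0204 and YTHDF2 0.0175 in replicates 1 to 4. VIRMA in replicates 5 to 8 (0.0238) and the ALKBH5 change between sets (0.0163) were also above it. The 3 were near 0 and not called in the first place: YTHDC1 (-0.00421) and YTHDF1 (-0.00708) over all libraries with total counts as the scale, and YTHDF1 (-0.000702) without MeWo replicate 2. The 14 lost calls were METTL3 and YTHDF2 in replicates 1 to 4 and VIRMA in replicates 5 to 8, all with differences of at most 0.13. The number of genes called among the 10 stayed at 6 over all libraries, was 7 to 9 in the low-numbered set, 9 or 10 in the high-numbered set and 9 for the change between sets under the alternatives run. Leaving out each library in turn gave 8 to 9 called genes in the low-numbered set and 9 to 10 in the high-numbered set. The count of the 10 genes whose MeWo sets do not overlap was 5, and 3 with median-of-ratios scaling; for A101D it was 9 to 10. Other scalings moved the median line difference of all genes, and its change between sets, by at most 0.056 on the log2 scale. That limit does not cover the ratios between sets within a line. With total counts as the scale the A101D ratio rose for each of the 10 genes, as for ALKBH5 from 1.09 to 1.17 and for METTL3 from 0.866 to 0.922. The replicate numbers gave no sign of pairing the lines: deviations of same-numbered libraries from the mean of their set correlated at -0.0284 to 0.0919. Deviations from the line mean, which include the difference between the sets, correlated at 0.0647 to 0.164. By the latter 2 of 8 A101D libraries correlated best with their own number. With the replicate number as a block 6 of the 10 genes and 15332 genes in all were called (15202 without the block), and MAT2A was called (log2 0.25, adjusted p = 0.00407). With no filter on low counts 22492 genes were called over all libraries. A quasi-likelihood and a Wald test on the counts were not run, because the joined columns failed the unit check for counts.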
